A study of Mus musculus with 6 samples.

Results

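Complement genes that macrophages can express were followed across 6 arrays of GM-CSF bone marrow cultures treated with heme or with vehicle. The members were a fixed list of 9 genes, C1qa, C1qb, C1qc, C1ra, C1s1, C3, Cfb, Cfp and C3ar1, of 19938 genes with a probe set in all. Each gene was represented by a probe set naming no other gene, the brightest on average if there were several. Of the 9 genes 8 had such a probe set, and each of those 8 had a single one; C3 had none in the platform annotation used here and was not analysed here. The marrow donors were Spic(igfp/igfp) mice in every case, so the controls carry that genotype too, and all received 20 ng/ml GM-CSF. On day 6 they were given 80 µM heme (the labels write µm) or vehicle, a salt solution with ammonium hydroxide, and the adherent cells were taken after 6, 24 or 72 h. There was 1 array for each of these 6 combinations. The labels do not say whether arrays came from separate mice or cultures, and give no age or number of mice.

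Complement is a cascade of serum proteins that marks microbes, immune complexes and dying cells for removal. In the classical pathway C1q, built from A, B and C chains, binds the target and activates the proteases C1r and C1s bound to it. The alternative pathway runs on C3 with factor B (Cfb) and is stabilised by properdin (Cfp), and the fragment C3a acts on cells through its receptor, C3ar1. Liver makes most circulating components, whereas C1q and properdin are made largely by myeloid cells.

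Values are log2 expression, so a difference of 1 is a 2-fold change. Levels of different probe sets cannot be compared with each other, and only differences within a gene are. The heme minus vehicle difference is given as mean ± SD over the 3 time points (n = 3), which are not replicates, and was tested with limma over 11516 genes. The median of all values, 5.37, served as the level filter, and a level under it is not shown to exceed background. In that test 1.72% of all genes tested passed an adjusted p of 0.05, 1.13% up and 0.59% down (130 and 68 genes, or 115 and 36 after cyclic loess normalization). Among the 8 measured complement genes 2 passed, C1ra and C1s1, both up, and 0 fell, while 6 of 8 had an unadjusted p below 0.05 in limma, with 10.6% of all genes tested. C1s1 entered the test only through the 72 h heme array, so this count is a description. The 8 genes had median differences of -0.20, -0.092 and 0.20 at 6, 24 and 72 h, against -0.10, -0.020 and 0.034 over all genes tested. Median-centring moved the 6 h median of all genes to -0.22; all 8 genes kept their sign at 6 h under it.

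The sequences before the start sites are shown for the genes on which the results turn, the B and C chains of C1q and C3ar1, whose values ran together, and C1ra, which rose with heme, with its neighbour C1s1. They are RefSeq sequences of build GRCm38.p6, on the gene's own strand, ending at the base before the annotated start or, for C1qc and C1s1, where the gene's longest annotated span begins. The sequences available covered 7 of the 9 members. C1qa and Cfb had none, so they could be neither shown nor searched. The C1qb window is chr4:136886201-136886450 and that of C1qc chr4:136892937-136893164, both on the minus strand. The C3ar1 window is chr6:122856158-122856407 and that of C1s1 chr6:124542393-124542609, both on the minus strand, and C1ra has chr6:124512371-124512620 on the plus strand. Capitals mark matches on either strand to any of 5 short motifs.
C1qb: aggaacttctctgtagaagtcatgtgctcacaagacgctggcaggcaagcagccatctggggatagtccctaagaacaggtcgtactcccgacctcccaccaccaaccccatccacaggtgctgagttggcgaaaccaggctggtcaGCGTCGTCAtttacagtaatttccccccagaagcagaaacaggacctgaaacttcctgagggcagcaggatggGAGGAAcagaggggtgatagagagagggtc
C1qc: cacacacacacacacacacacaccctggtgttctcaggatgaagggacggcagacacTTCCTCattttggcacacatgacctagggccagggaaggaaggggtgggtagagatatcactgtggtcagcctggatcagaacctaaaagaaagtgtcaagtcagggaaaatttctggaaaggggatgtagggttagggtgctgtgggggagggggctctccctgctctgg
C3ar1: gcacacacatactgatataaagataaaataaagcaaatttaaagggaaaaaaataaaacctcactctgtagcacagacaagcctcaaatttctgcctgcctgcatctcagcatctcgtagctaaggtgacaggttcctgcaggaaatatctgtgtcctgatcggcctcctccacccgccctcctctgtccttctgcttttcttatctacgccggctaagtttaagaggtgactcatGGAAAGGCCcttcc
C1ra: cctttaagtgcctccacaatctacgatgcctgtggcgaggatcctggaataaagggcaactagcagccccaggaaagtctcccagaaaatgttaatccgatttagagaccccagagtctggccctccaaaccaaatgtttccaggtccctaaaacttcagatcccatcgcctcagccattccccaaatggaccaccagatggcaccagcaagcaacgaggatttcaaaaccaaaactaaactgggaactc
C1s1: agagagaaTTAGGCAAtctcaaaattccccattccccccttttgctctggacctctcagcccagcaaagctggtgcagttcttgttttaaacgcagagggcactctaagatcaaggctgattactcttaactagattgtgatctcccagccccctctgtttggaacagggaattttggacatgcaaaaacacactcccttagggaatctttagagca

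The motifs searched in the 250 bases before the start were GAGGAA (the core of PU.1 family sites, to which SPI-C belongs), TTGCNNAA (C/EBP), GAAANNGAA (interferon response), TGACNNNGC (antioxidant response) and GGNNTTTCC (a form of NF-kB site). Of 32851 windows of that length, 23.3%, 9.56%, 7.13%, 10.2% and 4.93% held them, in this order. Positions count back from the end of the 250 searched bases. For C1qc and C1s1 this end lies past that of the printed sequence, inside the gene's longest annotated span. The PU.1 core lay 30 to 25 bases before the C1qb start and, on the opposite strand, 193 to 188 bases before the C1qc start. C1qb also held the antioxidant response core, 103 to 95 bases before the start. The NF-kB form lay 14 to 6 bases before the C3ar1 start, and the C/EBP core 242 to 235 bases before the C1s1 start. A further C1s1 window, from another annotated start and not printed, had no match. The C1ra window matched 0 of the 5. The windows of Cfp and C3 were searched but not printed. That of Cfp held the antioxidant response core, 90 to 82 bases before the start. That of C3 held the C/EBP core, 45 to 38 bases before the start. No matched motif overlapped another. These are matches of letters, and whether any is a bound site was not tested.

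The 3 C1q chains were lower with heme at 6 and 24 h and level with vehicle at 72 h, and none passed the test. In such bulk samples fewer cells of a type and less RNA per cell cannot be told apart. Their genes lie side by side on chromosome 4, with C1qb at 136880126 to 136886200, C1qc at 136889801 to 136892936 and C1qa at 136895916 to 136898844. C1qa (probe set 10517517) stood at 9.51, 10.03 and 9.78 on the vehicle arrays at 6, 24 and 72 h and at 9.30, 9.13 and 9.88 on the heme arrays. The 24 h heme array was the lowest of the 6, and the 72 h heme array lay within the vehicle range. C1qb (10517508) read 10.45, 10.64 and 10.63 with vehicle and 9.85, 9.95 and 10.65 with heme. Both early heme arrays lay below every vehicle array, as they did for C1qa and C1qc. C1qc (10517513) read 10.83, 11.03 and 11.06 with vehicle and 10.55, 10.04 and 10.96 with heme. Its lowest value was that of heme at 24 h, as for C1qa.

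At 24 h the difference was -0.90 for C1qa, -0.69 for C1qb and -0.98 for C1qc, which are 1.87-fold, 1.61-fold and 1.98-fold lower with heme. None of the 3 reached 2-fold. At 6 h C1qb showed the largest difference of the chains (-0.59, against -0.21 for C1qa and -0.28 for C1qc). At 72 h the differences were 0.097, 0.013 and -0.10 for C1qa, C1qb and C1qc. The C1qb value was -0.0022 after a second quantile normalization. Over the 3 time points C1qa differed by -0.34 ± 0.51 (limma, adjusted p = 0.635). C1qb differed by -0.42 ± 0.38 (limma, adjusted p = 0.379; 95% confidence interval -0.80 to -0.048). C1qc differed by -0.45 ± 0.47 (limma, adjusted p = 0.388; 95% confidence interval -0.86 to -0.047). On simulated data 1.2% of changes of 0.5 were recovered, so not passing says little about differences of this size. In every alternative run the mean differences stayed below 0, and none passed. Without the 24 h pair they were -0.057, -0.29 and -0.19 in the same order. Between 24 and 72 h within the heme arrays the levels were higher by 0.74, 0.70 and 0.92, a difference with no test. Their neighbour Epha8, 30575 bases from C1qa, stayed below 5.37 on every array.

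**Figure D1:**
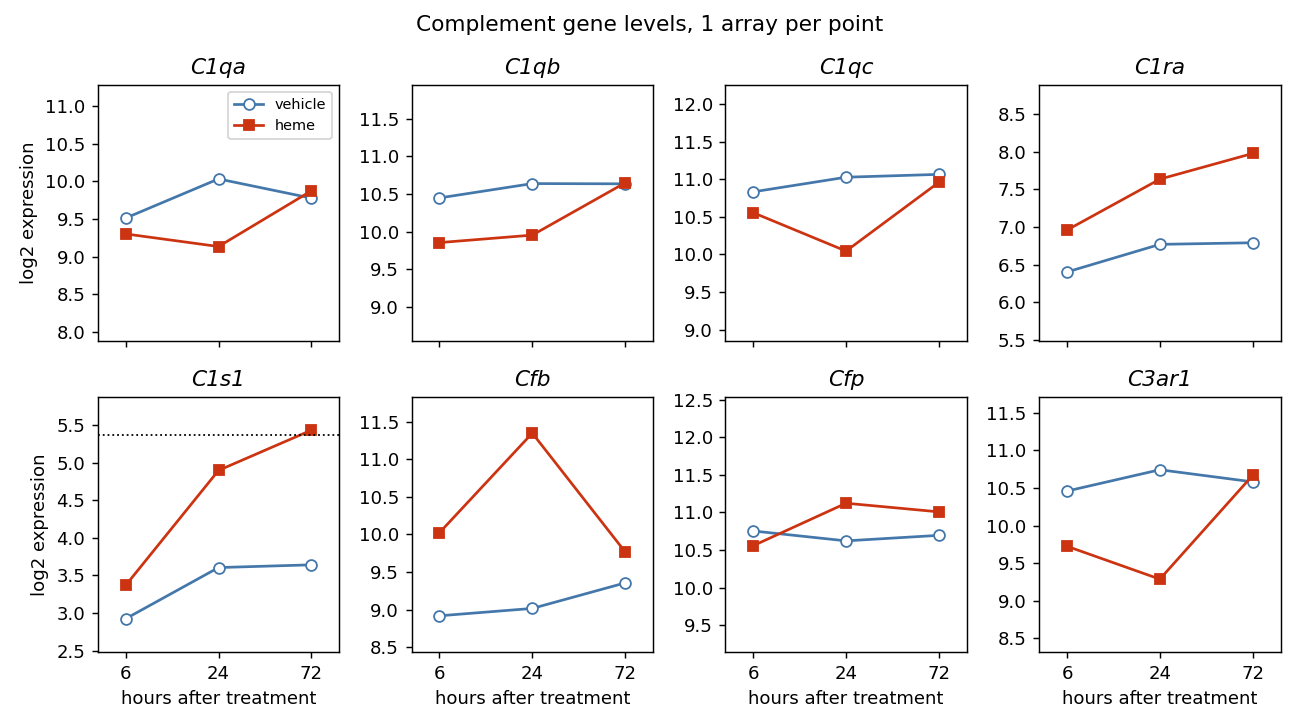
Log2 expression of the 8 measured complement genes against hours after treatment, 1 array per point, vehicle as open circles and heme as filled squares; each panel spans the same number of log2 units, and the dotted line marks 5.37. With heme the C1q chains and C3ar1 lie below vehicle at 6 and 24 h and meet it at 72 h. Cfb peaks with heme at 24 h, and C1ra and C1s1 are highest with heme at 72 h.

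C3ar1, the receptor for C3a, followed the same course as C1q with a larger dip. It lies on chromosome 6, at 122847140 to 122856157 (probe set 10547657). The vehicle arrays read 10.46, 10.74 and 10.58 at 6, 24 and 72 h, and the heme arrays read 9.73, 9.29 and 10.67. Both early heme arrays lay below all vehicle arrays, and the 72 h heme array lay within them. Heme minus vehicle came to -0.73, -1.46 (2.74-fold lower) and 0.086 at 6, 24 and 72 h. At 24 h C3ar1 had the 19th lowest difference of the 11516 genes, where 0.486% were lower by 2-fold or more, and it was the single complement gene of the 8 that was. At 6 h and at 72 h 0 of the 8 were lower by 2-fold or more, with 0.669% and 0.608% of all genes. Over the 3 time points it differed by -0.70 ± 0.77 and did not pass (limma, adjusted p = 0.289; 95% confidence interval -1.25 to -0.15). It passed when the 72 h arrays were left out, at -1.09 (limma, adjusted p = 0.0287), and when the 6 h arrays were, at -0.68 (limma, adjusted p = 0.0475). The fit without the 6 h arrays had 46.9 prior degrees of freedom and called 322 of all genes up and 199 down. Without the 24 h pair C3ar1 was at -0.32 (limma, adjusted p = 0.997). The flanking genes Foxj2 and Necap1 differed by 0.092 and -0.27 at 24 h.

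Over the 6 arrays the C1q chains correlated with each other at Pearson's r of 0.87 to 0.91 and with C3ar1 at 0.94 to 0.97. These points share their arrays, times and treatments, so the coefficients only describe the common course. Cfb ran the other way, with r of -0.73, -0.72 and -0.90 against C1qa, C1qb and C1qc, and C1ra had r of 0.98 with C1s1, a value that describes mostly readings below the filter, since C1s1 was below 5.37 on 5 of the 6 arrays. Among 1502 genes that varied by at least 1 log2 unit, the 5 named genes most like the mean of the 3 C1q chains were Gsdme (r = 0.97), Stard13 (0.94), Rcn3 (0.94), Klk1b22 (0.91) and Itga6 (0.90), over 6 arrays. At 24 h Gsdme, the gene of gasdermin E, differed by -1.15. Itga6, an integrin chain, differed by -1.29 at 24 h and remained at -0.71 at 72 h.

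Markers of macrophages, 8 in number, were measured beside C1q and C3ar1, all of them above 5.37. Their summed linear level ran from 16453 to 20227 on the vehicle arrays and from 16966 to 21558 on the heme arrays, and was higher with heme at each time point. This sum weights bright probe sets most, such as that of lysozyme (Lyz2), and single markers differed in direction. With heme 3 of the 8 were higher at 6 h, 4 at 24 h and 5 at 72 h. No share of all genes higher with heme is given for this or the later marker lists, so such counts lack a background. The median difference of all genes tested was -0.10, -0.020 and 0.034 at these times. The mannose receptor Mrc1 differed by -0.90, -0.86 and 0.035 at 6, 24 and 72 h, and the Fc receptor Fcgr1 by -0.52, -0.81 and -0.41. The receptor Cd14 rose over the 3 time points (1.09; limma, adjusted p = 0.00825), and the other 7 did not pass. At 24 h, where C1q and C3ar1 had their largest differences, the summed level of 10 neutrophil markers was also 10294 with heme against 4992 with vehicle. That sum too weights bright probe sets most. The part of macrophage or neutrophil RNA in the C1q and C3ar1 differences was not tested.

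C1ra was higher with heme at each time point, and the gap was wider at each later one. Once C1q is bound the protease C1r activates C1s, which in turn cleaves C4 and C2. C1ra (probe set 10541678; chromosome 6, 124512621 to 124523440) read 6.40, 6.77 and 6.79 on the vehicle arrays at 6, 24 and 72 h. On the heme arrays it read 6.96, 7.64 and 7.98. All heme arrays lay above all vehicle arrays, which 5.4% of all genes tested did. The differences were 0.56, 0.87 and 1.19, or 1.47-fold, 1.82-fold and 2.28-fold. C1ra rose by 0.87 ± 0.31 (limma, adjusted p = 0.0285). It kept the call in each alternative but 3. These were the fits that left out the 24 h arrays (limma, adjusted p = 0.393), the 72 h arrays (0.0871) or the time term (0.513).

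C1s1 (10547740; chromosome 6, 124530344 to 124542392) is the neighbour of C1ra, 6904 bases away. It read 2.92, 3.61 and 3.64 with vehicle and 3.37, 4.90 and 5.43 with heme. Only the 72 h heme array exceeded 5.37, and the 6 h heme array lay within the vehicle range. On measured values C1s1 passed, with a mean difference of 1.18 ± 0.68 (limma, adjusted p = 0.0378). With levels below 5.37 set to 5.37, the bound is at least 0.058 at 72 h and 0 at 6 and 24 h, so the change has no exact size. The call was lost after a second quantile normalization (limma, adjusted p = 0.0606), after cyclic loess (0.0764) and with a variance trend (0.0587). It was lost too in the fits that left out the 24 h arrays (limma, adjusted p = 0.472), the 72 h arrays (0.0931) or the time term (0.77).

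C1ra has a close copy, C1rb, and probes they share cannot separate their signals. The probe set that names C1rb and C1ra together (10541683) differed by 0.36, 0.99 and 1.38 at 6, 24 and 72 h, with levels of 6.82, 7.04 and 7.19 on vehicle and 7.18, 8.03 and 8.57 on heme. It had the same order of differences as C1ra alone. C1rl, a C1r-like gene 1978 bases from C1ra, read 6.59, 6.86 and 7.04 with vehicle and 7.05, 8.16 and 7.38 with heme. Its largest difference fell at 24 h (1.30, 2-fold or more as for 1.42% of all genes), unlike C1ra, and the mean of 0.70 ± 0.52 missed the threshold (limma, adjusted p = 0.149). Leaving out the 6 h pair brought it past (limma, adjusted p = 0.00379), in a fit that called 322 of all genes up and 199 down. C1s2, the copy of C1s1, stayed below 5.37 on every array. Clstn3, on the far side of C1rl, also stayed below 5.37.

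**Figure D2:**
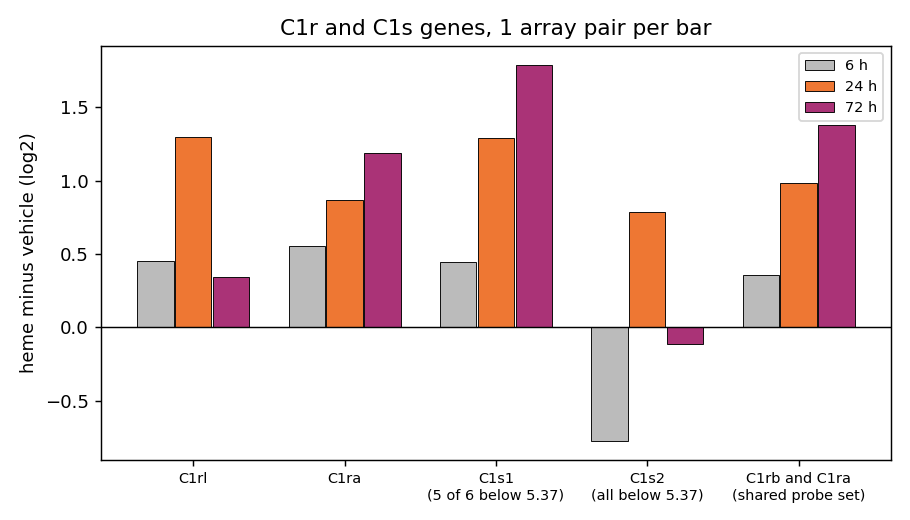
Heme minus vehicle difference in log2 expression for the C1r and C1s genes at 6, 24 and 72 h, 1 array pair per bar. C1ra, C1s1 and the probe set shared by C1rb and C1ra have their tallest bar at 72 h (1.19, 1.79 and 1.38), whereas C1rl has it at 24 h (1.30); levels behind C1s1 and C1s2 lie mostly or wholly below 5.37.

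C1r and C1s are also made by fibroblasts, so markers of fibroblasts and stromal cells were set beside them. Of 12 such markers 3, Lum, Pdgfra and Pdgfrb, were below 5.37 on every array, and 0 rose or fell over the 3 time points. Their summed linear level was 811 to 1518 on the vehicle arrays and 682 to 2225 on the heme arrays. At 6 h it was 682 with heme against 903 with vehicle, and 3 of 12 markers were higher with heme. At 24 h the sum was 798 against 811, and 8 of 12 markers were higher, among them the collagen gene Col1a1 by 0.34, while the proteoglycan gene Dcn was at -0.49. At 72 h the sum was 2225 against 1518, and 10 of 12 were higher. These counts include Lum, Pdgfra and Pdgfrb at 24 and 72 h and Pdgfrb at 6 h, though their levels are not shown to exceed background. The sum weights bright probe sets most, at 72 h that of Sparc (8.56 with vehicle and 9.70 with heme). Postn was at -0.42 there. The median difference of all genes tested also moved upward, from -0.10 at 6 h to 0.034 at 72 h. The part of stromal RNA in the C1ra and C1s1 differences was not tested.

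Cfb, the protease of the alternative pathway convertase, showed the largest single difference among the 8 genes. It lies on chromosome 17, at 34856374 to 34862514 (probe set 10450325). The vehicle arrays read 8.92, 9.02 and 9.36 at 6, 24 and 72 h and the heme arrays 10.02, 11.35 and 9.77. All heme arrays lay above all vehicle arrays, as for C1ra and for 5.4% of all genes. Heme minus vehicle came to 1.11, 2.33 and 0.41 at 6, 24 and 72 h, or 2.15-fold, 5.04-fold and 1.33-fold. At 6 h Cfb was the single complement gene of the 8 at 2-fold or more up, with 0.964% of all genes, and it fell just under that after median-centring (0.99). At 24 h Cfb was 2-fold or more up, with 1.42% of all genes, and ranked 28th from the highest of 11516. C1s1 read 1.29 higher there, but both its levels were below 5.37, so a 2-fold change was not shown.

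Over the 3 time points Cfb differed by 1.28 ± 0.97 and did not pass (limma, adjusted p = 0.0769; 95% confidence interval 0.62 to 1.94). It passed after median-centring (limma, adjusted p = 0.0124), when the 6 h arrays were left out (1.73e-05) and when the 72 h arrays were (0.0121, with a difference of 1.72). The fit without the 6 h arrays had 1 residual and 46.9 prior degrees of freedom and called 322 of all genes up and 199 down. Without the 24 h pair the Cfb difference was 0.76 (limma, adjusted p = 0.514). In the vehicle arrays Cfb was 0.44 higher at 72 h than at 6 h, while in the heme arrays 72 h minus 6 h was -0.25. The change from 24 to 72 h within heme was -1.58. The genes beside it did not share this course. Nelfe, 2 bases away, differed by 0.012 at 24 h, and C2, 88 bases away, stayed below 5.37 on every array.

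Cfp, properdin, had the smallest mean difference in size of the 8 genes. It lies on chromosome X, at 20925454 to 20931555 (probe set 10603860). It read 10.75, 10.62 and 10.70 on the vehicle arrays and 10.56, 11.12 and 11.01 on the heme arrays. The 6 h heme array was the lowest of the 6 and the later heme arrays were the highest. The differences were -0.20, 0.50 and 0.31, with a mean of 0.21 ± 0.36 (limma, adjusted p = 0.803; 95% confidence interval -0.16 to 0.57). No alternative brought it past the test.

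Properdin is stored by neutrophils, and markers of that cell type were set beside it. Of 10 neutrophil markers 1, Retnlg, stayed below 5.37 on every array. Their summed linear level ran from 3685 to 12133 on the vehicle arrays and from 5164 to 12932 on the heme arrays. At 24 h it was 10294 with heme against 4992 with vehicle, with 9 of 10 markers higher. Of these 9, Ly6g, Elane and Retnlg were below 5.37 on both 24 h arrays. The sum weights bright probe sets most, here S100a8, S100a9 and Mmp8, which differed by 1.97, 2.13 and -0.29. Cfb and Cfp, like C1q and C3ar1, also had their largest differences at 24 h. The part of neutrophil RNA in these differences was not tested. Over the 3 time points 0 of the 10 passed the test.

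**Figure D3:**
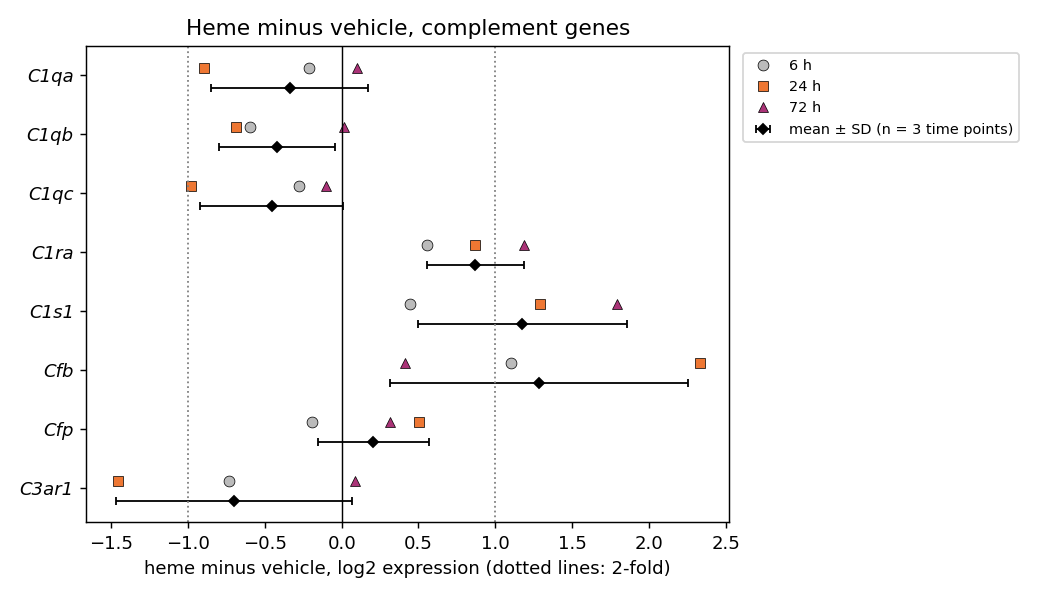
Heme minus vehicle difference in log2 expression for the 8 genes at 6 h (circles), 24 h (squares) and 72 h (triangles), with the mean ± SD over the 3 time points as black diamonds and bars. The 24 h square is the lowest point for C1qa, C1qb, C1qc and C3ar1 and the highest for Cfb and Cfp; for C1ra and C1s1 the 72 h triangle is the highest.

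Time in culture was compared in the same fit, as 72 h minus 6 h averaged over both treatments. In this contrast 6.59% of all genes passed, and of the 8 complement genes 1 did, C1s1 (1.39; limma, adjusted p = 0.0166), with the limit on its levels given above. C1ra differed by 0.70 and did not pass (limma, adjusted p = 0.0645). Within vehicle it was 0.39 higher at 72 h and within heme 1.02 higher. The C1q chains were 0.19 to 0.27 higher at 72 h than at 6 h in vehicle and 0.40 to 0.79 higher in heme. C3ar1 was 0.12 higher in vehicle and 0.94 higher in heme. Whether the course differed between treatments could not be tested, because an interaction leaves no residual degrees of freedom. From 6 to 24 h 0 of the 8 passed, with 0.599% of all genes (limma).

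The rest of the pathway was followed with a list of 53 further complement genes, of which 48 had a probe set of their own and 19 passed the level filter. In limma 0 of the 19 passed over the 3 time points, and 5 of 19 had an unadjusted p below 0.05, against 10.6% of all genes tested. Clusterin (Clu) is among the 5 and entered the test only through heme arrays, so this count is a description. Median differences of these 19 were -0.19, 0.022 and -0.071 at 6, 24 and 72 h. The lectin pathway proteases Masp1 and Masp2 and the C4 genes C4a and C4b stayed below 5.37 on every array. So did the terminal components Hc (which encodes C5), C6, C7, C8a, C8b and C9. The terminal component C8g passed the filter, was below 5.37 on 1 array and read up to 6.32 (vehicle, 24 h).

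Besides C1rl, the chaperone-like inhibitor clusterin (Clu) reached 2-fold at 24 h. It read 5.29 with vehicle and 6.62 with heme, a difference of at least 1.24, since the vehicle level is below 5.37. At 6 h both Clu levels were below 5.37 (5.26 and 5.22), and at 72 h the difference was at least 0.46. Clu entered the test only through the 24 and 72 h heme arrays, so its p-values are a description. It missed the threshold over the 3 time points (limma, adjusted p = 0.261) but not when the 6 h pair was left out (limma, adjusted p = 7.13e-05). That fit had 1 residual and 46.9 prior degrees of freedom and called 322 of all genes up and 199 down. Serping1, the C1 inhibitor that blocks C1r and C1s, was below 5.37 on 5 arrays and read 6.09 on the 72 h heme array. This is at least 0.72 above vehicle. Only that array brought Serping1 into the test, which it did not pass (limma, adjusted p = 0.749). At 72 h 1.25% of all genes were higher by 2-fold or more; of the 8 first genes C1ra was, and C1s1 read 1.79 higher with a bound of at least 0.058.

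Receptors of this list did not pass with heme. Cd93, a receptor once described for C1q, read 10.55, 10.72 and 10.71 with vehicle and 9.68, 10.25 and 10.24 with heme. All its heme arrays lay below all vehicle arrays, as for 5.85% of all genes, with a difference of -0.61 ± 0.23 (limma, adjusted p = 0.0942). Itgam, the alpha chain of complement receptor 3, differed by 0.14, 0.66 and 0.49 (limma, adjusted p = 0.286). C5ar1, the C5a receptor, differed by -0.47, -0.13 and 0.77 with heme (limma, adjusted p = 0.966). C5ar1 rose with time by 1.95 from 6 to 72 h over both treatments (limma, adjusted p = 0.00262). The scavenger receptor Colec12, a collectin, rose by 1.40 in that contrast (limma, adjusted p = 0.00149). Ficolin Fcnb and the regulator Susd4 fell by 0.80 and 1.79 in it (limma, adjusted p = 0.0274 and 9.93e-04). Of their 6 levels 3 and 4 were below 5.37, those at 72 h among them, so these falls have no exact size. Susd4 entered the test only through its 6 h arrays, and Fcnb only through its 6 h arrays and the 24 h heme array. Their p-values are therefore a description.

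**Figure D4:**
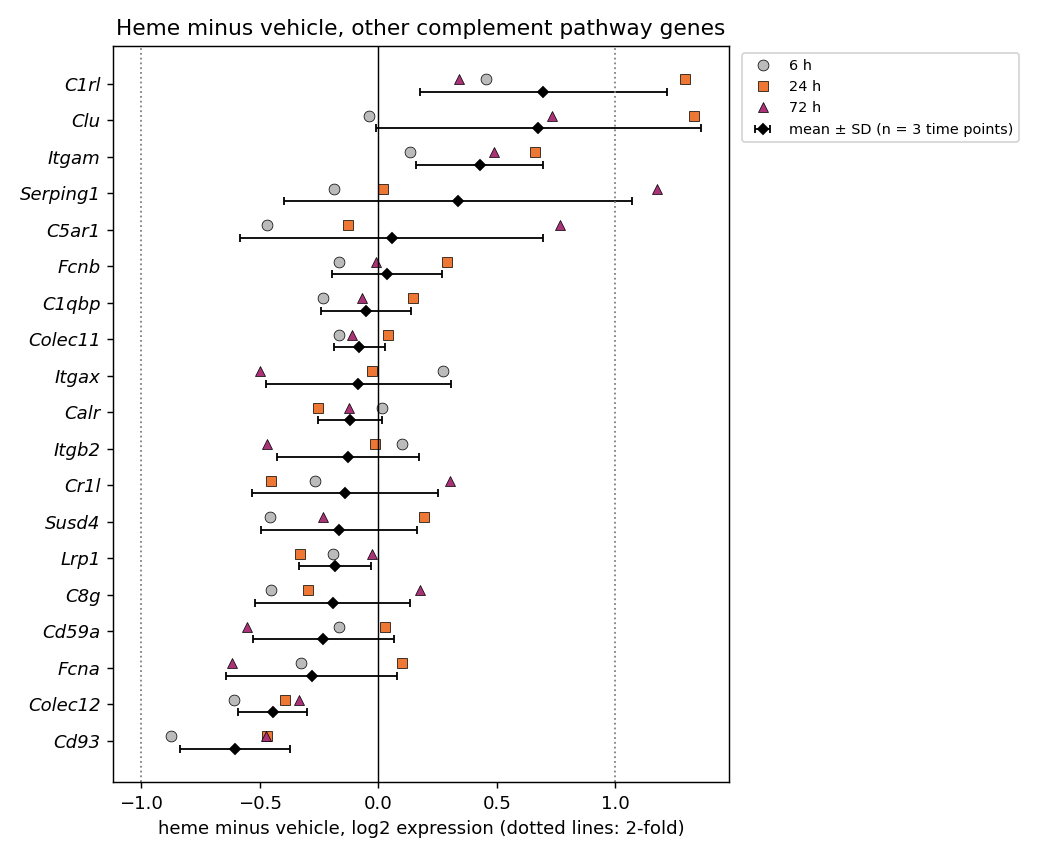
Heme minus vehicle difference in log2 expression for the 19 other complement genes that passed the level filter, at 6 h (circles), 24 h (squares) and 72 h (triangles), with mean ± SD over the 3 time points. C1rl and Clu lie beyond the 2-fold line at 24 h. Serping1 is drawn beyond it at 72 h, but its vehicle level there is below 5.37. Its difference is only bounded, at 0.72 or more. Cd93, Colec12 and Lrp1 lie below 0 at all 3 time points, Lrp1 by only 0.025 at 72 h.

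Across the series, array medians ran from 5.34 to 5.45 and pairwise correlations from 0.975 to 0.986, so no array stood apart by these measures; the highest median was that of heme at 6 h. Spic and Hmox1, both known to respond to heme, rose by 3.88 ± 0.47 and 2.59 ± 0.28 (limma, adjusted p = 2.55e-05 and 8.86e-05). Of 8 dendritic cell markers Flt3 and Zbtb46 were below 5.37 on every array and the other 6 passed the filter. The summed linear level of the 8 was higher with heme at each time point (10651 to 10991 on vehicle, 10879 to 13032 on heme). At 6, 24 and 72 h 6, 7 and 4 of the 8 were higher. These counts include levels below 5.37, those of Zbtb46 at 6 and 24 h, Flt3 at 24 and 72 h and Dpp4 at 24 h. The chemokine receptor Ccr7 rose by 1.16 (limma, adjusted p = 0.0279), with 1.84 at 24 h. The part of dendritic cell RNA in the complement differences was not tested. All measured T and NK cell, erythroid and mast cell markers were below 5.37 on every array (5, 2 and 5 genes). So were 4 of 5 endothelial, 3 of 4 B cell and 3 of 4 hepatocyte markers, Alb among the last. The exceptions were Kdr (5.03 to 6.26), Cd79b (5.39 to 5.75) and Apoa1 (5.63 to 6.03).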

How the data were processed

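Expression was measured on 6 single-colour arrays. The authors deposited log2 values for 35556 probe sets, made with RMA per the submitters' processing notes and with quantile normalization in ArrayStar per the series' design text; no tool version was given. RMA compresses differences of dim probe sets. Of the probe sets 21789 named a single gene in the platform annotation, 1621 several (not used for genes) and 12146 were not listed. Per gene the probe set with the highest mean was used (999 of 19938 genes had several). Genes whose highest array reached 5.37 were kept, 11516 in all.

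Treatment and time were terms in limma 3.58.1 (R 4.3.3; lmFit, eBayes, two-sided, Benjamini-Hochberg), with 2 residual and 7.17 prior degrees of freedom. The pairing by time rests on the labels; deviations from treatment means of same-time arrays correlated at 0.56, 0.21 and 0.53. Single time points had 1 array per group and no test; precision is limited by this number of arrays. p-values measure only spread between time points, which may be technical. On simulated data with 11516 genes the step recovered 1.2% of changes of 0.5 log2 units in the heme comparison. It recovered 50.2% of changes of 1 and 87.6% of changes of 2 log2 units. The members and lists were chosen with earlier results of these data known, and the interferon and NF-kB motifs were shortened by 1 letter after matches of the longer forms had been seen. Named were the members, other complement genes that passed a test or reached 2-fold, those needed to describe their list, neighbours within 50000 bases, the 5 genes most like C1q, and markers. A likeness search for C3 was planned and not run, as C3 had no value. Alternatives were other normalizations, level filters, probe set means, variance models, fold thresholds, an offset of 16, no time term and leaving out each time point. Figures were drawn with matplotlib 3.10.9 in Python 3.11.15.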

Additional observations from a re-analysis of the deposited data

Results flagged for a closer look

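For 4 complement genes the heme minus vehicle difference had opposite signs at different time points, with 1 array pair at each; whether these time points differ was not tested. C3ar1 ran from -1.46 at 24 h to 0.086 at 72 h, a span of 1.54 on the log2 scale. C1qa spanned 0.997, from -0.90 at 24 h to 0.097 at 72 h. C1qb spanned 0.70, from -0.69 at 24 h to 0.013 at 72 h, where a second quantile normalization gave -0.0022. Cfp spanned 0.70, from -0.20 at 6 h to 0.50 at 24 h.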

How the results depend on the processing

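The C1q chains, C1ra, C1s1, Cfb, Cfp and C3ar1 kept the sign of their mean heme difference in every alternative that gave a value. Of the complement genes 1 rose after a second quantile normalization, after cyclic loess, with the level filter 1 unit higher (which removes C1s1) and with a variance trend, and 0 rose without the time term. Leaving out a time point gave 0 to 3 that rose and 0 to 1 that fell, and 0 to 2 of the other complement genes rose. These 2 were C1rl and Clu, and Clu entered the test only through heme arrays. Over all genes 11 to 322 rose and 1 to 199 fell with a time point left out, the fewest without the 24 h pair and the most without the 6 h pair, where the prior was 46.9 degrees of freedom. Without the time term 17 rose and 1 fell; 117 fell after median-centring and 36 with cyclic loess. With a time point left out Serping1 ran from -0.083 to 0.60 and C5ar1 from -0.30 to 0.32, the negative values being those lacking the 72 h arrays. With the higher filter 0 complement genes passed from 6 to 72 h. At 2-fold, 0 were up at 6 h after median-centring and 1 at 24 h with an offset of 16, where measured values count 2 with C1s1. At 1.5-fold, 2 were down at 6 h and 4 at 24 h. At 4-fold, 0 were up at 6 h, 1 up and 0 down at 24 h and 0 up at 72 h. No share of all genes is given at 1.5-fold or 4-fold, so these counts cannot be set against a background. The cause was not tested. The time contrast within 1 treatment has no residual degrees of freedom, so counts there were not run. Signal near background limits C1s1, Clu and Serping1.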
